A study of Mus musculus with 31 samples.

Results

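The proteasome genes of the array were taken as every gene whose symbol begins with Psma, Psmb, Psmc, Psmd, Psme, Psmf or Psmg. The array held 67 probes of 45 such genes, and 60 probes of 42 genes were tested because their detection p was under 0.05 on at least 3 of 31 arrays, among 10496 genes tested in all. Of the 42 genes, 40 encode subunits, activators or assembly factors, and 2 (Psmc3ip and Psme3ip1) encode interacting proteins that share the symbol and are no subunits. Psma1 and Psma6 were detected on 0 arrays and Psmc6 on 1, so none was tested. Psmb11, the catalytic subunit of the thymoproteasome of cortical thymic epithelium, had no probe under that symbol, and neither did Psma8, Psmd3, Psmf1, Psmg4 or Psme2b. The members were not chosen by how they changed.

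The samples were thymus, spleen, inguinal lymph node (ILN) and mesenteric lymph node (MLN) of 12 month old male C57BL/6 mice, either wild type (WT) or homozygous for loss of GIT2, a GTPase-activating scaffold protein (GIT2KO). A ninth group held the extra lymph nodes of GIT2KO mice, which the study calls parathymic lobes, and which had no WT counterpart. Each of the 9 groups had 3 samples. WT1 to WT3 and GIT2KO1 to GIT2KO3 each gave all 4 tissues, and the extra lymph nodes came from GIT2KO1, GIT2KO2 and GIT2KO5. All mice were fasted before tissue was taken. Values are normalised log2 intensities of whole tissue, so that fewer cells of a type and less RNA per cell cannot be told apart.

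The 20S proteasome is a barrel of alpha and beta subunits in which Psmb5, Psmb6 and Psmb7 encode the constitutive catalytic sites. In lymphoid cells, and in other cells under interferon, these are replaced by the immune catalytic subunits of Psmb8, Psmb9 and Psmb10, which trim proteins toward peptides fit for MHC class I. The 19S cap, made of Psmc ATPases and Psmd non-ATPases, unfolds ubiquitylated proteins, while PA28 alpha and beta (Psme1 and Psme2) form an interferon-induced activator ring.

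Psmb9 and Psmb8 lie 10865 bases apart in the class II region of the mouse MHC, and the start of Psmb9 is separated by 225 bases from that of Tap1, the peptide transporter gene on the opposite strand. The 4 interferon-linked genes called lower in thymus than in ILN, MLN and spleen in both genotypes were picked by that result. The bases before their starts are shown, from RefSeq in the build GRCm38.p6 and read along the gene. For Psmb9 they are the whole interval to the start of Tap1, and for the others the 250 bases before the start. Capitals mark a GAS motif (TTCNNNGAA) in Psmb8 and a GC box (GGGCGG, or its complement) in the other 3.

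Psmb9, chr17:34187331-34187555, minus strand: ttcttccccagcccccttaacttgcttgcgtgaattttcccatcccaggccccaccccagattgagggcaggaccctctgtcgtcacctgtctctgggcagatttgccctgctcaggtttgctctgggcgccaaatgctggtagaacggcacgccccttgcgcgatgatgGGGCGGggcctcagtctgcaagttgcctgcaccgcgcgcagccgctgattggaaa
Psmb8, chr17:34197945-34198194, plus strand: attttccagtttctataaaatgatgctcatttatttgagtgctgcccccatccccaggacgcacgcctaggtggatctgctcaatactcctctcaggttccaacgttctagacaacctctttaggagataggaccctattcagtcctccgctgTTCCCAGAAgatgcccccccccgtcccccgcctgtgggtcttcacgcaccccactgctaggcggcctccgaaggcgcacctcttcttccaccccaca
Psme1, chr14:55578244-55578493, plus strand: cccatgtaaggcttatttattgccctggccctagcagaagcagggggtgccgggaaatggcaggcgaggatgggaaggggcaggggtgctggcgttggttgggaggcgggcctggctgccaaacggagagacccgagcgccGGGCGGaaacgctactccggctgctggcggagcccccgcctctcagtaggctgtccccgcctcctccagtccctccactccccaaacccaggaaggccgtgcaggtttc
Psme2, chr14:55591102-55591351, minus strand: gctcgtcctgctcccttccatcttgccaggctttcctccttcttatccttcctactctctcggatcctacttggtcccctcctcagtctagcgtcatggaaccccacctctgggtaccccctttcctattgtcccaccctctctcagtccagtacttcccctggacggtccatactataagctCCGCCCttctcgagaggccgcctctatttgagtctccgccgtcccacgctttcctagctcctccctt

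The promoter table held 36 of the 42 tested genes. On both strands, a GAS motif occurred in 2 of the 36 (5.56%, against 7.18% of 27025 promoters of equal length), an interferon-response core (GAAANNGAA) in 3 (8.33% against 7.16%), an antioxidant-response core (TGACNNNGC) in 4 (11.1% against 10.1%) and a GC box in 19 (52.8% against 32.9%). The 3 with the interferon-response core were Psmb3, Psmd4 and Psmd9. Psmb10, the immune subunit gene not printed, held none of the motifs searched. The capitals in the printed sequences do not overlap another motif searched. A match is a description of letters and not of binding.

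The arrays had mean signals of 208.64 to 590.9 and 45.9 to 52.8% of probes detected. Git2 was lower in GIT2KO samples on all 3 of its probes in each of the 4 tissues, with differences of -3.64 to -0.74 log2. The thymi had log2 levels of 12.0 to 12.2 for the recombinase gene Rag1 and 11.4 to 11.9 for the epithelial keratin Krt8. Krt8 was detected on 0 of 3 arrays of extra lymph nodes, where Rag1 was 5.20 to 5.99. The lymph node gene Glycam1 was 11.6 to 12.5 there, and the brown fat gene Ucp1 was 10.1 to 11.9, against 9.27 to 11.3 in GIT2KO thymi. The library of WT spleen 3 was among the dimmest and stood apart from the other spleens for several members.

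As a set, the members were bright and steady. Their median log2 level was 10.5, against 7.72 over all tested genes, and the median range of their 9 group means was 0.74, against 1.01. By limma's F test over the 9 groups, 35 of the 42 members (83.3%) differed at an adjusted p under 0.05, against 78% of all tested genes. Psmc4, an ATPase of the 19S base, had the smallest spread within groups (SD 0.0933). Psmc2, another ATPase, had the narrowest range of group means (0.26, adjusted p = 0.183). With quantile normalisation, GIT2KO thymus had the highest mean for 14 members and GIT2KO MLN for 10, whereas WT ILN had the lowest for 12 and WT spleen for 9. These counts were not set against all tested genes. With median scaling of the arrays, 19 members changed the sign of their genotype difference in thymus. In the plot of all 42 genes by comparison, no member was called in the ILN and MLN genotype comparisons. Few genes of any kind were called there (2.71% and 2.15%).

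**Figure D1:**
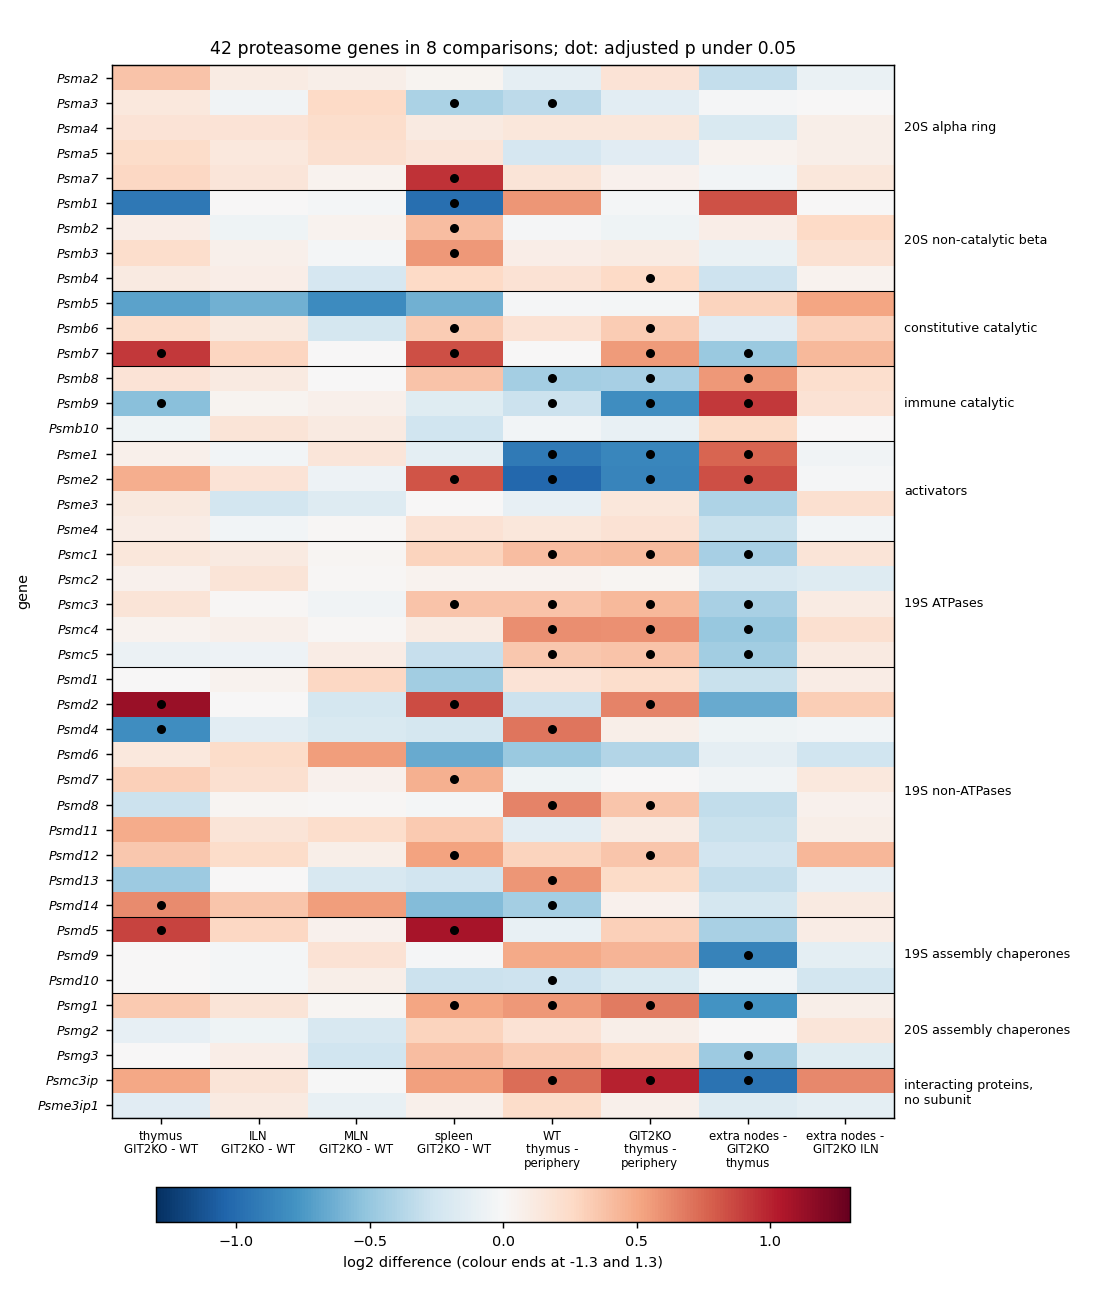
Colour gives the log2 difference of each of the 42 genes (rows, grouped by role) in each of 8 comparisons (columns), red for higher and blue for lower in the group named first, and a dot marks an adjusted p under 0.05. No dots stand in the ILN, MLN or extra node against ILN columns, and the rows of Psmb8, Psmb9 and PA28 are blue where Psmc1, Psmc3, Psmc4 and Psmc5 are red in the columns of thymus against periphery.

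Of the immune subunits, Psmb8 and Psmb9 were lower in thymus than in the peripheral tissues, as were both genes of PA28, and Psmb10 was not called. Psmb9 was 11.58 to 11.74 in the 3 WT thymi and 11.76 to 12.28 in the 9 samples of WT ILN, MLN and spleen. In GIT2KO mice it was 11.03, 11.06 and 11.29 in the thymi and 11.75 to 12.20 in the 9 peripheral samples. Neither genotype had an overlap between thymus and periphery. Psme1 was 11.06 to 11.33 in WT thymi and 11.13 to 11.49 in GIT2KO thymi, below each of the 18 peripheral samples, whose lowest value was 11.74. Psme2 was 7.37 to 7.55 in WT thymi and overlapped only WT spleen (7.37, 7.82 and 8.02), and in GIT2KO mice 7.62 to 8.13 lay below all peripheral samples (8.43 to 9.22). Psmb8 was 9.03 to 9.19 in WT thymi and 8.85 to 9.42 in WT spleens, so that these groups overlapped, whereas WT ILN and MLN lay at 9.27 to 10.13. In GIT2KO mice Psmb8 was 9.06 to 9.53 in thymus and 9.31 to 10.02 in the peripheral tissues, with overlap. Psmb10, the third immune subunit, was at 11.65 to 11.82 in all 6 thymi and missed the threshold in all 8 comparisons. Its lowest values were in GIT2KO spleen, at 11.35 to 11.51.

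**Figure D2:**
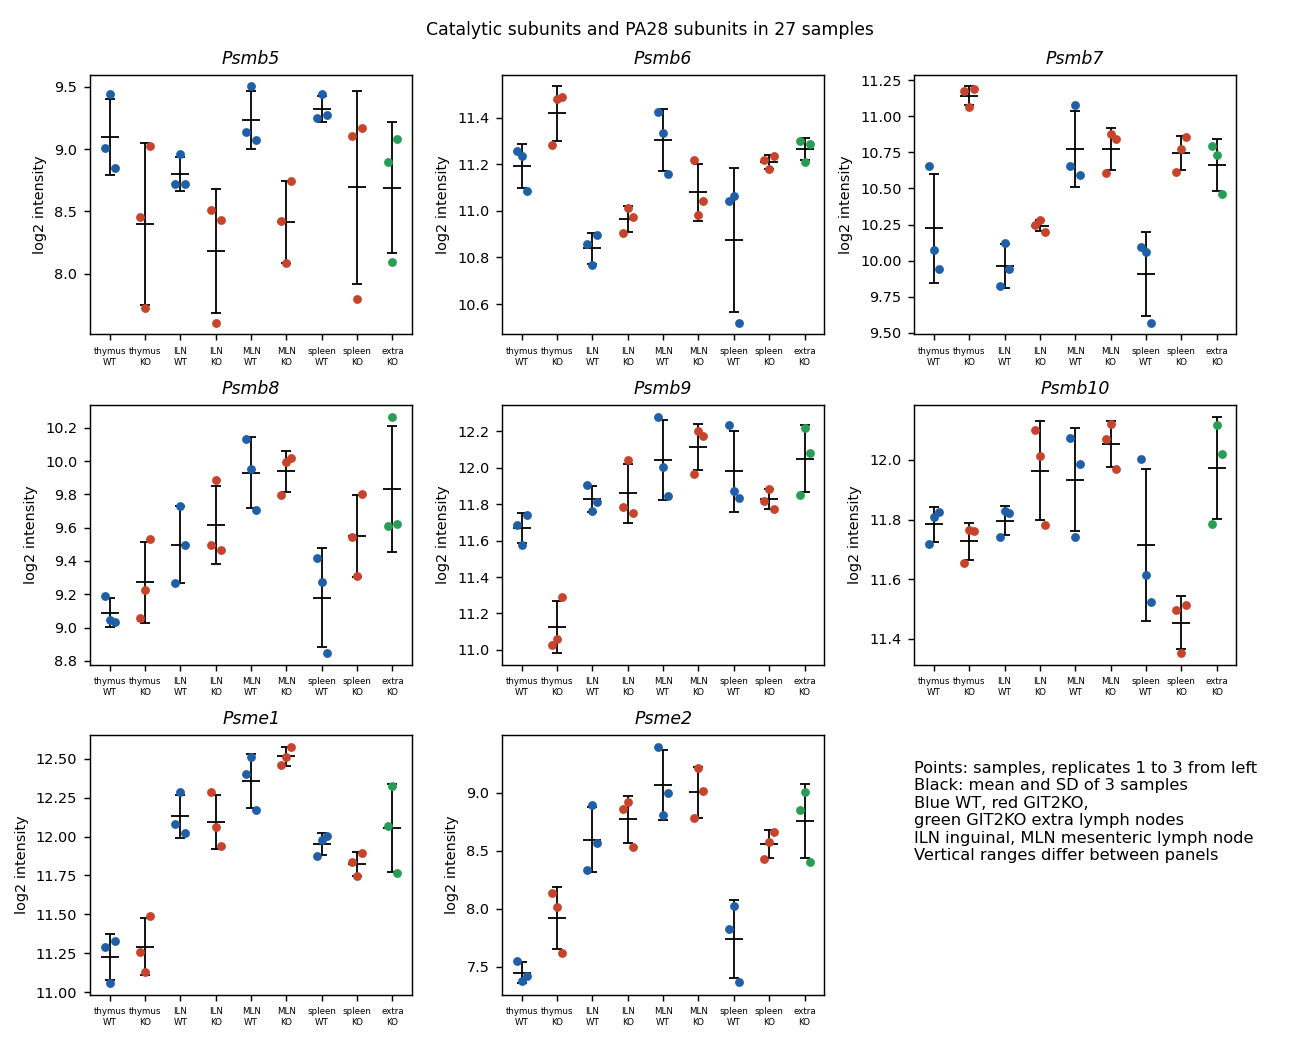
Points are log2 intensities of the 27 samples by group (horizontal axis) for 8 genes, with the mean and SD of 3 samples in black and a vertical range set for each panel. Psme1 is lowest in the 6 thymi, Psmb9 is lowest in GIT2KO thymus, and Psmb5 has 1 low GIT2KO sample in each tissue.

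The thymus was set against the mean of ILN, MLN and spleen within each genotype. In WT mice 9 members were higher and 7 lower in thymus (with median scaling of the arrays, 9 and 3), where 25.3% of all tested genes were higher and 24% lower. In GIT2KO mice 12 were higher and 4 lower (with median scaling, 5 and 5), where 25% and 25.4% of genes were called. As shares of the 42 members these were 21.4% and 16.7% in WT and 28.6% and 9.52% in GIT2KO mice. Among the lower members in both genotypes were Psmb8, Psmb9 and both PA28 genes. Psme1 fell by 0.92 ± 0.11 (SE, adjusted p = 1.39e-07) in WT and by 0.85 ± 0.11 (adjusted p = 4.3e-07) in GIT2KO thymus. Psme2 fell by 1.02 ± 0.16 (adjusted p = 1.58e-05) and 0.86 ± 0.16 (adjusted p = 0.000128). A second probe of Psme1 fell by 0.87 and 0.97. Psmb9 fell by 0.28 ± 0.10 (adjusted p = 0.0292) in WT and 0.81 ± 0.10 (adjusted p = 6.19e-07) in GIT2KO mice. The difference between these values was not tested as such. Psmb8 fell by 0.45 ± 0.15 and 0.43 ± 0.15, at adjusted p = 0.0201 and 0.0235.

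The WT calls of Psmb8 and Psmb9 were the less firm ones. Psmb8 missed the threshold without WT thymus 2 (adjusted p = 0.078) or 3 (0.074) and with median scaling (0.063), and in GIT2KO mice without GIT2KO thymus 1 (0.163) or 2 (0.081). Psmb9 in WT mice missed it without WT thymus 1 (0.066), WT thymus 2 (0.144) or WT MLN 1 (0.053), and with median scaling (0.27). The WT count fell from 16 to 9 without WT thymus 2.

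With quantile normalisation most 19S ATPases were higher in thymus. Of the 5 tested, 4 (Psmc1, Psmc3, Psmc4 and Psmc5) were higher in thymus in both genotypes, where 25.3% and 25% of all genes were. The differences were 0.35 to 0.60 in WT and 0.37 to 0.59 in GIT2KO mice. With median scaling the 4 were called in WT mice, whereas in GIT2KO mice only Psmc4 was (0.39, adjusted p = 0.0301), and Psmc1 (0.21, adjusted p = 0.208), Psmc3 (0.25, adjusted p = 0.148) and Psmc5 (0.18, adjusted p = 0.355) were not. Psmc4 was 11.79 to 12.03 in the 6 thymi and 11.10 to 11.54 in the 18 peripheral samples, with no overlap. It rose 1.52-fold in WT thymus (0.60 ± 0.08, adjusted p = 6.66e-07) and by a like amount in GIT2KO thymus (0.59 ± 0.08, adjusted p = 9.14e-07). Psmc3ip, whose product acts in meiotic recombination and is no proteasome subunit, rose by 0.73 ± 0.20 and by 1.00 ± 0.20. The assembly chaperone gene Psmg1 (PAC1) was also higher in both, by 0.57 ± 0.15 and 0.67 ± 0.15.

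Among the 10 tested non-ATPases of the 19S cap, 3 were higher and 1 lower in WT thymus, and 3 were higher and 0 lower in GIT2KO thymus, where about as large a share of all genes was higher (25.3% and 25%). With median scaling the 3 GIT2KO calls became 1 (Psmd2), without Psmd8 (adjusted p = 0.511) and Psmd12 (adjusted p = 0.407). Psmd4, a ubiquitin receptor, rose by 0.70 ± 0.15 (adjusted p = 0.000339) and Psmd8 by 0.64 ± 0.14 (adjusted p = 0.000368) in WT mice. Psmd14, the deubiquitylase of the lid, fell by 0.44 ± 0.17 in WT (adjusted p = 0.0353). That call was lost without WT thymus 2 or 3, WT ILN 1, WT MLN 2 or WT spleen 3 (adjusted p = 0.051 to 0.162), and with the animal as a fixed term (0.15). In GIT2KO mice Psmd2, a scaffold of the 19S base, rose by 0.64 ± 0.23 (adjusted p = 0.021). Psmd2 was dim, at 6.43 to 6.63 in these thymi, and lost the call without GIT2KO thymus 1 (0.091) or 2 (0.051).

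Cell type markers moved with these differences. The mean log2 level of the 9 tested B cell markers was 7.86 to 9.06 in thymi and 10.68 to 11.38 in all other samples, with all 9 lower in thymus in both genotypes. All 8 macrophage and dendritic cell markers were lower as well, with mean levels of 7.17 to 7.73 in thymi against 9.22 to 10.65 elsewhere. The 11 double-positive thymocyte markers averaged 10.23 to 10.60 in thymi and 6.48 to 7.06 elsewhere, and the 6 cell division genes were all higher in thymus. Of 14 adipocyte markers 2 were higher and 1 lower in WT thymus, and 9 were higher and 0 lower in GIT2KO thymus. Of 5 erythroid markers 5 were lower in WT thymus, and 3 were lower and 1 higher in GIT2KO thymus. Their part in the proteasome differences was not tested.

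Class I and interferon genes were called lower in thymus more often than higher. Of 16 tested genes of peptide supply and interferon response, 8 were lower and 2 higher in WT thymus, and 10 were lower and 1 higher in GIT2KO thymus, where 24% and 25.4% of all genes were lower. Their median differences were -0.30 and -0.51, against 0.01 and 0.02 over all genes. Nlrc5, the activator of class I gene transcription, fell by 1.12 ± 0.17 and by 1.50 ± 0.17. Irf8, a factor of B and myeloid cells, fell by 1.24 ± 0.16 and 1.80 ± 0.16. Tap1, which shares its upstream interval with Psmb9, fell by 0.39 ± 0.15 in WT and by 1.08 ± 0.15 in GIT2KO thymus. Its partner Tap2 went the other way in WT mice and rose by 0.91 ± 0.18, and Socs1, an inhibitor of cytokine signalling, was higher in thymus in both genotypes (1.60 and 0.99).

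**Figure D3:**
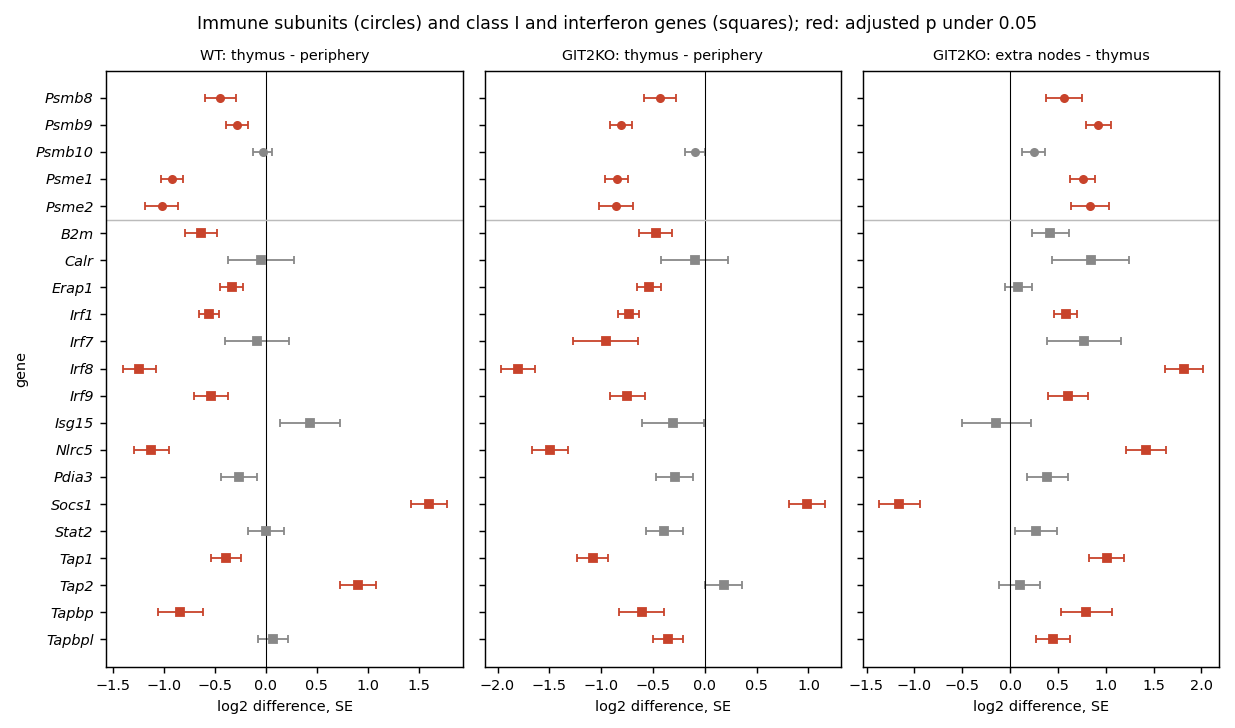
Log2 differences with SE (horizontal axes) of the 5 immune proteasome genes (circles) and 16 class I and interferon genes (squares) in 3 comparisons, red where the adjusted p was under 0.05. Most red points lie below 0 in the thymus against periphery panels and above 0 in the panel of extra nodes against thymus.

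In the extra lymph nodes Psmb8, Psmb9 and both PA28 genes were higher than in thymus. This comparison shares the GIT2KO thymi with the one before and with the genotype comparison in thymus. Against GIT2KO thymus, 4 members were higher and 9 lower (with median scaling, 4 and 3), where 20.1% and 21.3% of all genes were called. With the animal as a fixed term in a fit of all GIT2KO samples, 5 were higher and 16 lower. The share of all genes called in that fit was not counted. Only 2 animals gave both tissues. The 4 higher members were the immune subunit genes Psmb9 and Psmb8 and both PA28 genes. Psmb9 was 11.85, 12.22 and 12.08 in the extra nodes and 11.03, 11.06 and 11.29 in GIT2KO thymus, a 1.90-fold difference (0.92 ± 0.13, adjusted p = 2.67e-06). Psme1 was 12.07, 12.33 and 11.76, 1.69-fold higher (0.76 ± 0.13, adjusted p = 5.23e-05). Psme2 was 8.85, 9.01 and 8.40, 1.78-fold higher (0.83 ± 0.20, adjusted p = 0.00179). The extra nodes did not overlap the thymi for any of these genes.

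Psmb8 was 9.61, 10.27 and 9.62 in the extra nodes, 1.48-fold above thymus (0.56 ± 0.19, adjusted p = 0.0202). The second sample, from GIT2KO2, lay above the other 2, and without it the difference was 0.34 (adjusted p = 0.169). The call was also lost without GIT2KO thymus 1 (0.103) or 2 (0.055). Among the lower members, Psmc3ip (0.96 ± 0.24), Psmd9 (0.86 ± 0.27) and Psmg1 (0.78 ± 0.18) had the largest falls. Psmd9, a chaperone of base assembly, was dim (5.26 to 5.86 in the extra nodes, detected on 2 of 3 arrays), and its call was lost without extra node 2 (0.074) or GIT2KO thymus 2 (0.050), and its second probe differed by -0.30 (adjusted p = 0.427). The 4 ATPases that were high in thymus were lower in the extra nodes, among them Psmc4 by 0.49 ± 0.10 (adjusted p = 0.000193), but all 4 calls were lost with median scaling (Psmc4 -0.34, adjusted p = 0.145, and the other 3 adjusted p = 0.076 to 0.099). Under that scaling only Psmc3ip, Psmd9 and Psmg1 were called lower. Psmb7 fell by 0.48 ± 0.17 (adjusted p = 0.023), a call lost without extra node 3 (0.114), GIT2KO thymus 1 (0.062) or GIT2KO thymus 3 (0.064), and with median scaling (0.052). Its other 2 tested probes were not called here (-0.53, adjusted p = 0.0612, and -0.22, adjusted p = 0.181). Of the class I and interferon genes, 7 of 16 were higher and 1 lower, with Irf8 1.82 ± 0.20, Nlrc5 1.42 ± 0.21 and Tap1 1.01 ± 0.18 above thymus. B cell markers were higher for 9 of 9 genes, and markers of double-positive thymocytes were lower for 10 of 11 and cell division genes for 6 of 6. Their part in the proteasome differences was not tested.

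Against GIT2KO ILN, 0 members were called in the extra nodes, where 2.4% of genes were higher and 2.19% lower. At an unadjusted p under 0.05, 5 members were higher and 1 lower. With the animal as a fixed term, 3 were higher and 1 lower, and the methods' t-test gave 4 higher and 0 lower before adjustment. The shares of all genes without adjustment or with the animal term were not counted. The largest differences of the constitutive catalytic genes were 0.51 (95% interval -0.18 to 1.20) for Psmb5 and 0.42 (0.08 to 0.76, adjusted p = 0.17) for Psmb7. The intervals for Psme1 (-0.31 to 0.23) and Psmb9 (-0.07 to 0.45) included 0.

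Some members differed between the genotypes in thymus. In GIT2KO against WT thymus 4 members were higher and 2 lower (with median scaling, 2 and 4), where 6.96% and 9.17% of all genes were called. As shares of the 42 members the main counts were 9.52% and 4.76%, so the number called says nothing particular to the members. The members' median difference was 0.13 with quantile normalisation and -0.14 with median scaling, which moved the median over all genes from -0.05 to -0.16, so no direction of the family as a whole was set. No called member changed sign between the scalings.

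Psmb7, the trypsin-like constitutive site, was 10.65, 10.07 and 9.94 in WT thymi and 11.17, 11.07 and 11.19 in GIT2KO thymi. It rose 1.89-fold (0.92 ± 0.17, adjusted p = 0.000718), and it kept the call without any 1 sample. Psmd2 was 5.77, 5.41 and 4.95 in WT and 6.63, 6.45 and 6.43 in GIT2KO thymi, and rose by 1.13 ± 0.28 (adjusted p = 0.00743). The probe was detected on 2 of 4 arrays of WT thymus and 3 of 3 of GIT2KO thymus, and without WT thymus 3 its adjusted p was 0.059. The GIT2KO samples lay above the WT samples for both genes.

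Psmd5, a chaperone of 19S base assembly, was 6.96 to 7.19 in WT and 7.82 to 8.13 in GIT2KO thymi. The difference was 0.88 ± 0.28 (adjusted p = 0.0312) and missed the threshold without GIT2KO thymus 1 (0.072) or 2 (0.114), or without WT thymus 2 (0.099) or 3 (0.080), and with median scaling (0.065). Psmd14 rose by 0.62 ± 0.21 (adjusted p = 0.0431), and kept the call only without WT thymus 1 (adjusted p = 0.088 to 0.139 without any other sample), and with median scaling its difference was 0.46 (adjusted p = 0.115). Without WT thymus 3 the count of called members fell from 6 to 3.

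Psmb9 was the only immune subunit called between the genotypes in thymus. The GIT2KO thymi (11.03, 11.06 and 11.29) lay below the WT thymi (11.69, 11.58 and 11.74), 1.46-fold lower (0.54 ± 0.13, adjusted p = 0.00577), and with median scaling the difference was -0.86 (adjusted p = 0.0125). Psmb8 differed by 0.18 (95% interval -0.21 to 0.57) and Psmb10 by -0.06 (-0.30 to 0.19). Psmd4 was 12.79, 13.31 and 13.30 in WT and 12.46, 12.24 and 12.29 in GIT2KO thymi, 1.75-fold lower (0.81 ± 0.18, adjusted p = 0.00399). WT thymus was the highest group for Psmd4, with all its samples above the GIT2KO thymi.

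Of the class I genes, Tap1 (0.82 ± 0.18), Tap2 (0.89 ± 0.22) and Irf8 (0.65 ± 0.20) were lower in GIT2KO thymus, and 0 were higher. Tap1 was 9.31, 9.10 and 9.53 in WT and 8.63, 8.27 and 8.57 in GIT2KO thymi, without overlap. Psmb9 and Tap1 were both lower, and a part of their shared upstream interval in this was not tested. Of 11 tested proteasome partners with other symbols, 1 was called. It was Uchl5, a deubiquitylase that docks on the 19S cap, at 7.76 to 8.47 in WT and 9.34 to 9.40 in GIT2KO thymi (1.26 ± 0.24, adjusted p = 0.001).

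Adipocyte markers moved with the thymic genotype difference. Of 14 tested, 12 were higher in GIT2KO thymus, with mean log2 levels of 5.83 to 8.10 in WT and 9.01 to 10.57 in GIT2KO thymi. For Adipoq, a defining adipocyte gene, the WT range was 4.88 to 9.12 and the GIT2KO range 10.1 to 11.5. B cell markers were lower for 1 of 9 genes and erythroid markers higher for 2 of 5. Of 11 double-positive thymocyte markers 0 were higher and 2 lower, and of 8 macrophage and dendritic cell markers 1 was higher and 1 lower. Their part in the proteasome differences was not tested.

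**Figure D4:**
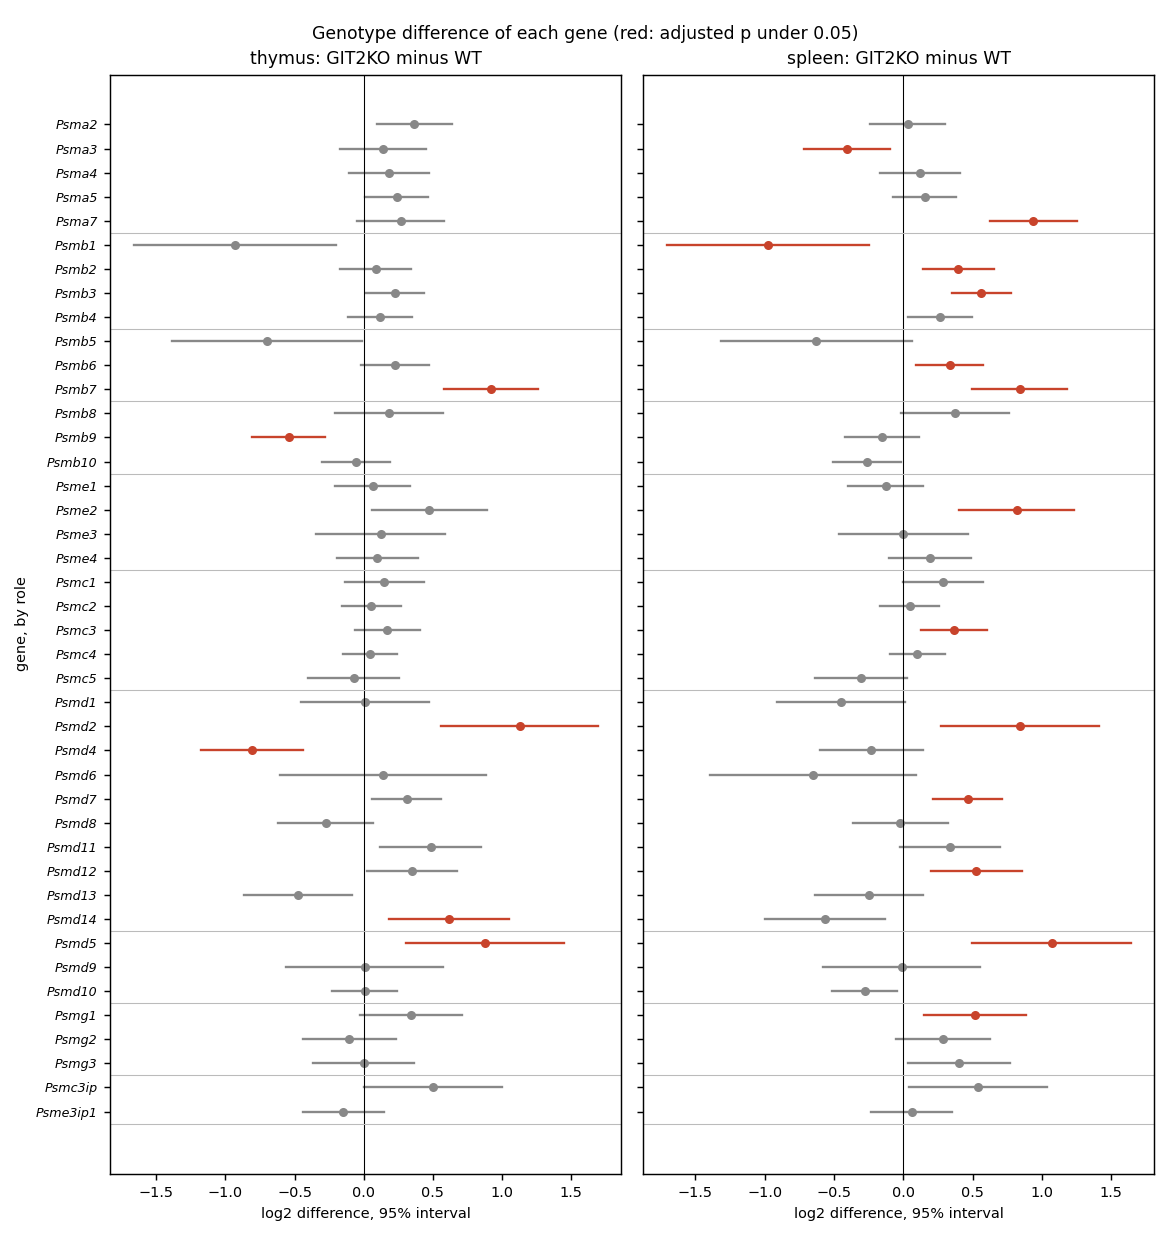
Log2 differences of GIT2KO minus WT (horizontal axes) with 95% intervals for the 42 genes by role, in thymus and in spleen, red where the adjusted p was under 0.05. Thymus has 6 red genes and spleen has 14, with Psmb7, Psmd2 and Psmd5 to the right of 0 in both panels.

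Spleen had the most members called between the genotypes. In GIT2KO against WT spleen 12 members were higher and 2 lower (with median scaling, 6 and 4), where 10.6% and 13.7% of all genes were called. The members' median difference was 0.14, and -0.05 with median scaling. The higher members came from most roles and comprised 1 alpha subunit (Psma7), 2 non-catalytic beta subunits (Psmb2 and Psmb3), the catalytic genes Psmb6 and Psmb7, 5 genes of the 19S cap and its assembly, Psme2 and Psmg1.

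Psma7 was 10.79, 10.83 and 10.06 in WT spleens and 11.50, 11.53 and 11.47 in GIT2KO spleens. It rose 1.92-fold (0.94 ± 0.15, adjusted p = 0.000149). Psmb7 was 10.09, 10.06 and 9.57 in WT and 10.62, 10.77 and 10.85 in GIT2KO spleens (0.84 ± 0.17, adjusted p = 0.000814). For both genes the genotypes did not overlap, and WT spleen 3 was the lowest sample.

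Psmd5 was 6.48, 7.03 and 6.29 in WT and 7.25, 7.75 and 8.02 in GIT2KO spleens, 2.10-fold higher (1.07 ± 0.28, adjusted p = 0.00679). Psme2 was 7.82, 8.02 and 7.37 in WT and 8.43, 8.58 and 8.66 in GIT2KO spleens, 1.76-fold higher (0.82 ± 0.20, adjusted p = 0.00495). Its ring partner Psme1 differed by -0.13 (95% interval -0.40 to 0.14). Psmb6 rose by 0.34 ± 0.12 (adjusted p = 0.0393) and Psmd2 by 0.84 ± 0.28 (adjusted p = 0.0273), a probe detected on 1 of 4 arrays of WT spleen.

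The spleen count depended on single libraries and on the samples in the fit. It fell from 14 to 6 without WT spleen 3, to 6 without GIT2KO spleen 1 and to 9 without GIT2KO spleen 2, and to 3 with only the spleens in the fit. Without WT spleen 3, Psma7 (0.69), Psmb7 (0.67), Psmd5 and Psme2 (0.63) were still called, whereas Psmb6 (0.16, adjusted p = 0.312) and Psmd2 (0.56, adjusted p = 0.19) were not. Psmd2 also lost the call without GIT2KO spleen 3 (0.71, adjusted p = 0.113), and Psmb6 without any single GIT2KO spleen (adjusted p = 0.079 to 0.096). With median scaling Psmb6 differed by 0.11 (adjusted p = 0.718) and Psmd2 by 0.68 (adjusted p = 0.0596), and neither was called.

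The lower members were Psmb1, a non-catalytic beta subunit, and Psma3, an alpha subunit. Psma3 was 12.22, 12.37 and 12.81 in WT and 11.91, 11.95 and 12.32 in GIT2KO spleens, with overlap (-0.41 ± 0.15, adjusted p = 0.049). It was not called without WT spleen 3 (-0.24, adjusted p = 0.302), GIT2KO spleen 1 (0.166) or GIT2KO spleen 2 (0.167), and with median scaling it differed by -0.84 (adjusted p = 0.00374). Psmb1 differed by -0.98 ± 0.35 (adjusted p = 0.0458), with overlap, and kept the call only without WT spleen 2 (-1.59).

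Psmb1 had a pattern of its own. It was 11.71 to 12.08 in the 12 samples of ILN and MLN, 11.80 to 11.97 in WT thymi and 11.70 to 11.95 in the extra nodes. It was 9.28, 9.29 and 9.37 in GIT2KO spleens and 11.43, 9.06 and 10.37 in WT spleens, and in GIT2KO mice 10.12 in thymus 2, 11.77 in thymus 3 and between these in thymus 1. In thymus the genotype difference was -0.93 (adjusted p = 0.0707), and -1.25 with median scaling (adjusted p = 0.0309). WT spleen 1 stood far above the other spleens, and without it the genotype difference was -0.40 (adjusted p = 0.371). The mean level of the 5 tested erythroid markers was 10.19 in WT spleen 1 and 12.21 to 12.89 in the other 5 spleens. In GIT2KO thymi 1, 2 and 3 it was 8.23, 8.77 and 6.76, and the lowest Psmb1 of these thymi was in the sample with the highest erythroid level. Other samples did not line up in this way. WT spleens 2 and 3 had erythroid levels of 12.30 and 12.21 and Psmb1 values of 9.06 and 10.37. WT thymus 2 had the highest erythroid level of the WT thymi (7.41) and their highest Psmb1 (11.97). The part of red cell RNA in the Psmb1 values was not tested.

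Other genes and markers moved in spleen too. Of the class I genes, Calr (2.38 ± 0.40), Isg15 (1.09 ± 0.36) and Tapbp (0.90 ± 0.27) were higher, and Tap2 and Nlrc5 were lower, by 0.58 and 0.61. Of the 11 proteasome partners, 0 were higher and 1 was lower, the shuttle receptor gene Ubqln1 (-0.30). Of the 6 cell division genes 5 were higher in GIT2KO spleen, with mean levels of 8.55 to 9.70 in WT and 10.02 to 10.62 in GIT2KO spleens. Erythroid markers were higher for 2 of 5 genes. Of 8 macrophage and dendritic cell markers 3 were higher and 1 lower, and of 11 double-positive thymocyte markers 0 were higher and 4 lower. Their part in the proteasome differences was not tested.

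In ILN and MLN no member was called between the genotypes. By limma 0 of 42 members were called in ILN, where 2.71% of all genes were, and 0 of 42 in MLN, where 2.15% were. At an unadjusted p under 0.05, 0 members were called in ILN and 1 higher and 1 lower in MLN, and the methods' t-test gave 5 in ILN and 1 in MLN before adjustment. The shares of all genes without adjustment were not counted, so these counts cannot be set against a background. In MLN without WT MLN 2, whose Psmd6 (6.84) stood above the other WT MLN samples, 2 members were called. The 95% intervals for Psmb9 were -0.23 to 0.30 in ILN and -0.19 to 0.33 in MLN, and for Psmb7 -0.06 to 0.62 and -0.34 to 0.34. Of the class I and interferon genes, 1 of 16 was called in the nodes, Isg15 in ILN (1.39 ± 0.36).

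The test of unequal genotype effects over the 4 tissues called 4 members (9.52%), where 8.01% of all genes were called. They were Psmb7 (adjusted p = 0.0283), Psmd14 (0.0321), Psma7 (0.0322) and Psmb3 (0.0383). Psmb7 rose in thymus and spleen and differed by 0.28 in ILN and 0.00 in MLN. Psma7 differed by 0.27 in thymus, 0.16 in ILN, 0.05 in MLN and 0.94 in spleen, and Psmb3 by 0.23, 0.06, -0.02 and 0.56 in the same order. Psmd14 differed by 0.62 in thymus, 0.36 in ILN and 0.54 in MLN, and by -0.56 in spleen (adjusted p = 0.0502). Its WT spleen values were 9.28, 9.01 and 9.95 and its GIT2KO spleen values 8.90, 8.77 and 8.88. The count of 4 became 1 without WT spleen 3, GIT2KO spleen 1, GIT2KO spleen 3, GIT2KO MLN 1 or GIT2KO MLN 3, and 0 without GIT2KO spleen 2. It was 2 without WT ILN 2 and 7 without WT spleen 1 or WT spleen 2.

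Psmb5, the chymotrypsin-like constitutive site, varied by animal. In the 5 samples of animal GIT2KO2 it was 7.72 in thymus, 7.61 in ILN, 8.09 in MLN, 7.80 in spleen and 8.09 in the extra nodes. The other 10 GIT2KO samples lay between 8.42 and 9.17 and the 12 WT samples between 8.72 and 9.51, so the 5 samples of this animal were below all others. Psmb5 was measured by 1 tested probe. It was 1 of 3 members for which the same GIT2KO animal was lowest in all 4 tissues. For the others, Psmd9 and Psmg3, that animal was GIT2KO3 and not GIT2KO2. Among the WT mice 3 members (Psma7, Psmb3 and Psmb4) had such an animal. The share of all tested genes with such an animal was not counted. The genotype differences of Psmb5 were -0.70 in thymus, -0.62 in ILN, -0.82 in MLN and -0.63 in spleen, each with an SE of 0.33. None passed the test (adjusted p = 0.15 to 0.46).

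**Figure D5:**
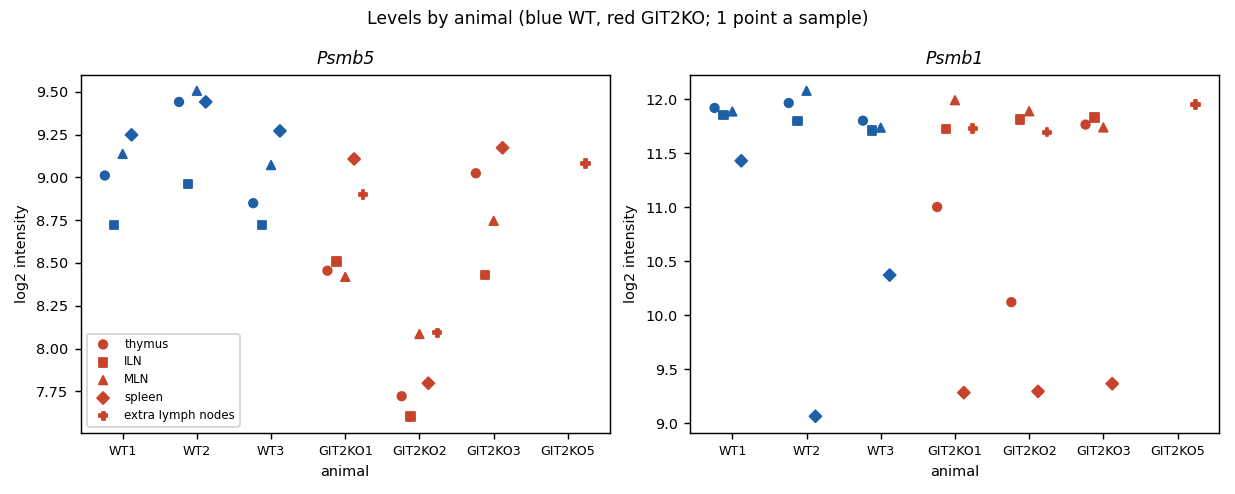
Log2 intensities of Psmb5 and Psmb1 (vertical axes) by animal (horizontal axis), with 1 point a sample, the symbol giving the tissue and the colour the genotype. The 5 points of GIT2KO2 are the lowest for Psmb5, at 7.61 to 8.09, and for Psmb1 the low points are spleens and 2 GIT2KO thymi.

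Psmb6, the caspase-like constitutive site, moved less. It lay between 10.77 and 11.49 in all samples but WT spleen 3 (10.52). It rose by 0.33 ± 0.10 in GIT2KO thymus against periphery (adjusted p = 0.00573), and with median scaling that difference was 0.15 (adjusted p = 0.44). In WT mice the difference was 0.19 (95% interval -0.01 to 0.38).

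The probes of a gene did not always go together in the genotype comparisons. In thymus all 3 tested probes of Psmb7 were higher in GIT2KO mice, whereas in spleen 1 of them was not called (0.25, adjusted p = 0.156). The second probe of Psmd2 was called neither in thymus (0.53, adjusted p = 0.169) nor in spleen (0.32, adjusted p = 0.403), where the brightest was called. In thymus a second probe rose where the brightest was not called for Psmd10 (0.66 against 0.01), Psmd7 (0.84 against 0.31), Psmb2 (0.53 against 0.09) and Psma7 (0.46 against 0.27).

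In spleen a second probe of Psmd9 rose by 0.85 where the brightest differed by -0.01, and a second probe of Psmc5 rose by 0.51 where the brightest differed by -0.30. The second probe of Psmd6 fell by 0.54 (brightest -0.65, adjusted p = 0.195). Of the other probes of Psmd10 in spleen, 1 rose by 0.64 and 1 fell by 0.35. The second probe of Psmd12 differed by -0.55 (adjusted p = 0.198) where the brightest rose by 0.53. In GIT2KO thymus against periphery the second probe of Psmd2 was not called either (0.36, adjusted p = 0.163), and in WT mice that of Psmc5 was not (0.27, adjusted p = 0.113). The gene level values of these members hold for the brightest probe.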

How the data were processed

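Total RNA of whole tissues was hybridised to Illumina MouseRef-8 bead arrays. Per the file headers and the labels, the authors deposited GenomeStudio 2011.1 signal intensities without normalisation for 31 arrays of 27 samples, each with a detection p-value for every probe. The authors also deposited score values, a table of z-scores, which were checked to be log10 signals standardised within each array, with medians of -0.503 to -0.414.

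Intensities were background corrected from the detection p-values, offset by 16, quantile normalised and log2 transformed (neqc, limma 3.58.1, R 4.3.3), and 4 repeat arrays were averaged with the first array of their sample. Probes with a detection p under 0.05 on at least 3 arrays were kept (15291 of 25697), and a gene was read from its brightest tested probe. The platform annotation used named 23978 probes with 1 gene symbol each, and 1719 were unnamed here. A model of the 9 groups was fitted to all tested probes with limma, and p-values from moderated tests were adjusted by Benjamini-Hochberg over all of them, with a threshold of 0.05. No file gives read depth; the number of arrays limits the precision. The fit was tested on simulated data.

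Per-sample values are given for the catalytic and PA28 genes and for up to 4 called members in each direction and comparison with the largest difference; other genes named were chosen after their values were seen. The members, roles and marker lists were chosen with earlier results of these data known. Of all columns of sample values, 0 were unmapped. WT1 to WT3 and GIT2KO1 to GIT2KO3 gave several tissues each, so comparisons within a genotype share animals, as the sample descriptions show. The main fit had no animal term, so its tests of these comparisons are unpaired. An animal term was used only in alternative settings. Deviations of samples of the same animal correlated at -0.23 to 0.41 (median 0.12), and those that share only a number across genotypes at -0.12 to 0.26. Alternatives changed the background correction, scaling, filter, fit, repeat arrays, probe summary, test and samples. The methods' t-test is the study's general test for a pair of groups. It was applied here without the further Z ratio cutoff of the study's transcript lists, so it does not repeat the study's array calls.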

Additional observations from a re-analysis of the deposited data

Results flagged for a closer look

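The genotype difference was unequal over thymus, ILN, MLN and spleen for 4 members by a test of the difference itself, limma's F test. These were 9.52% of the 42 members, near the 8.01% of all tested genes, so the count says nothing particular to the members. The adjusted p was 0.0283 for Psmb7, 0.0321 for Psmd14, 0.0322 for Psma7 and 0.0383 for Psmb3. Psmb7 was higher in GIT2KO thymus and spleen, Psma7 and Psmb3 were higher in GIT2KO spleen, and Psmd14 was higher in GIT2KO thymus and had a difference of -0.56 in spleen. Groups of 3 samples are too small for a test of single outlying samples.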

How the results depend on the processing

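Under other settings 116 recomputed counts of called members stayed within 1.5 times the main count and 16 did not, and 519 recomputed values of named members kept their call and 69 lost it. Leaving out 1 sample, 320 values of named members kept the call and 46 lost it. No named member changed sign under any of these, but the named members were picked because the main fit called them. Over all 42 members, median scaling changed the sign of 19 genotype differences in thymus and 10 in spleen. It changed 12 in GIT2KO thymus against periphery, and fewer in the other comparisons. With median scaling, 10 members were called in GIT2KO thymus against periphery, 7 in extra nodes against GIT2KO thymus and 1 for unequal genotype effects; the last count was also 1 with the deposited z-scores, whose differences are on another scale, and 2 without a filter. With only the spleens in the fit, 3 members were called. The methods' t-test called 11 members in thymus, 5 in ILN, 1 in MLN and 4 in extra nodes against ILN before adjustment; after Benjamini-Hochberg it called 1 in thymus, 0 in spleen, 7 in WT thymus against periphery and 7 in extra nodes against GIT2KO thymus. The cause of these changes was not tested, and the shares of all genes called were counted for the main fit only. With the replicate block of the animal as a fixed term, 21 members were called in extra nodes against GIT2KO thymus and 4 against GIT2KO ILN. The replicate block across genotypes, where samples share only a number, gave 7 members in thymus, 15 in spleen and 0 in ILN and MLN. The animal as a random block (correlation 0.0463) gave 6 in thymus and 14 in spleen. Leaving out 1 sample gave 3 to 8 in thymus, 6 to 16 in spleen, 0 to 2 in MLN, 9 to 22 in WT thymus against periphery and 0 to 7 for unequal genotype effects. With 3 samples a group, the number of arrays limits the precision, and differences of dim members such as Psmd2 and Psmd9 are understated by the offset.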
